A study of Mus musculus with 6 samples.

Results

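Adipocytes and fibroblasts of the mouse line 3T3-L1 were compared after both had been given adenine, a free purine base that the salvage enzyme Aprt turns into AMP. The comparison uses 2 of the 6 arrays of the study, chosen by their titles, 1 from each cell state. The study measured total RNA on Affymetrix whole-transcript arrays, with 1 array for each of 6 conditions: both states, each untreated, with 0.5 mM adenine or with 0.5 mM AICAR, a nucleoside that Adk phosphorylates to an AMP analogue. According to its title it concerns purinergic signalling by adenine. Differences are log2 signal in adipocytes minus log2 signal in fibroblasts, so 1 is a 2-fold difference. They were taken over 9969 genes, the brighter part of 19938 genes with a symbol of their own on the array. The floor of that filter was a mean of 5.87 over the 6 arrays. Just inside it, Hs3st4 (mean 5.8720) differed by -0.05 and Spdef (5.8721) by 0.09 in the adenine pair, and just outside it Gbx2 (5.8709) differed by 0.23.

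The adenine fibroblasts were kept in 10% calf serum and exposed to adenine for 3 days. The adenine adipocytes were grown to confluence and induced for 3 days in 10% fetal bovine serum with insulin at 1 µg/ml, the glucocorticoid dexamethasone at 1 µmol/l and the phosphodiesterase inhibitor IBMX at 115 µg/ml. They received adenine during those 3 days, and then spent 3 days in insulin medium without it. The control pair had the same media without a compound, and the AICAR pair had AICAR in place of adenine. All 6 cultures come from 1 clonal line with no other genetic change named. Cell state therefore went with induction drugs, the kind of serum and the time since exposure, and these cannot be told apart. With 1 array a side no difference between 2 arrays has a test, and nothing measures the spread between cultures.

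In culture, 3T3-L1 fibroblasts turn into fat cells when insulin, a glucocorticoid and a rise in cyclic AMP act on confluent cells. The early factors Cebpb and Cebpd switch on Pparg and Cebpa, which drive the genes of lipid storage, insulin response and adipokine secretion, while genes of the fibroblast matrix and cytoskeleton decline. Type I interferon, which signals through Stat2 and Irf9, switches on antiviral genes of the Ifit, Oas and Gbp families in most cell types.

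Interferon-stimulated genes led the genes that were lower in adipocytes, and many carry the element that the Stat2 and Irf9 complex binds. The promoters of 3 of them are shown because their genes share this element and stood far apart between the states, and Plin1 is shown as a fat cell gene without it. Each is 250 bases before to 50 after a RefSeq start in build GRCm38.p6, written 5′ to 3′ on the gene's strand. Capitals mark the core of the interferon-stimulated response element, GAAANNGAAA on either strand, in the first 3, and the C/EBP motif TTGCNNAA in Plin1.
Ifit3 promoter, chr19:34583279-34583578, plus strand: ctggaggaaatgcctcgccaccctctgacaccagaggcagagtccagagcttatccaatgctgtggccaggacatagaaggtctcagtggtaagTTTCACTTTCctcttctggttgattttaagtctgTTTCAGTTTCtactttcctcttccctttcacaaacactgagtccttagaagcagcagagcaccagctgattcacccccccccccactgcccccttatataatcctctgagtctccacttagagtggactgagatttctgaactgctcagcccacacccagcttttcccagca
Ifit1 promoter, chr19:34640639-34640938, plus strand: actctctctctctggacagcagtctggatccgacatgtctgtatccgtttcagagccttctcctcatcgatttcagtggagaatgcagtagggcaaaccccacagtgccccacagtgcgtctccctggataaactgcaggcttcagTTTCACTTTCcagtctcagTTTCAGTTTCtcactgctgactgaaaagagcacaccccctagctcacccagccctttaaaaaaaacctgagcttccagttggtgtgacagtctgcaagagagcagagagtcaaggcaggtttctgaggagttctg
Irgm1 promoter, chr11:48871371-48871670, minus strand: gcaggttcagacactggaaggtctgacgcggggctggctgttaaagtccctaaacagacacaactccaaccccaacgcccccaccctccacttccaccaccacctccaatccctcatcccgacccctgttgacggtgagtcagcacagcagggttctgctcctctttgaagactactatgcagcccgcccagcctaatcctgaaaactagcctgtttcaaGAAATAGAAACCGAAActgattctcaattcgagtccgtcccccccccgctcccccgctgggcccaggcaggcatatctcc
Plin1 promoter, chr7:79732727-79733026, minus strand: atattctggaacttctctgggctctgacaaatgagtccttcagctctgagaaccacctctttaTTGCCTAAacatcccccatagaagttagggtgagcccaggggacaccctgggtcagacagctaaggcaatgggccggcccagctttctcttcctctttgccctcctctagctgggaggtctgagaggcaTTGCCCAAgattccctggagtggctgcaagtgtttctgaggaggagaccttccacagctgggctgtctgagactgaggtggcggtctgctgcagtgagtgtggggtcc

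Each of the 3 interferon gene promoters holds 2 copies of the core. In Ifit3 they begin at bases -156 and -122 from the start, in Ifit1 at -104 and -85, and in Irgm1 at -30 and -24, where the copies overlap. Of the interferon-stimulated genes that passed the filter and have a RefSeq promoter, 14 of 25 (56%) hold the core. The core was in 286 of all 8067 such genes that passed the filter (3.55%) and in 1079 of 27025 genes in the whole table (3.99%). Among genes at least 2-fold lower in the adenine adipocytes 43 of 643 (6.69%) hold it, and among those at least 2-fold higher 15 of 557 (2.69%). Oasl2 and Ifit2 of the interferon list do not hold the core, while the lower genes Akr1c14 and Mmp13, outside that list, do. The C/EBP motif was found in 11.3% of the genes at least 2-fold higher and 11% of those at least 2-fold lower. It was found in 9.32% of the 8067 genes from which both sets were drawn, and in 12.2% of the whole table. For AGGTCA, an element of nuclear receptors such as Pparg, also searched on both strands, the shares were 15.6% and 16.2%, beside 14.1% of the 8067 genes and 18.1% of the table. Of the 15 highest genes in the adenine pair 8 have a RefSeq promoter, and 2 of these, Cidec and Plin1, hold the C/EBP motif. None of these shares was tested. A match describes these letters only, in windows that hold no distant enhancer.

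The markers of both states were checked first. Of the 10 adipocyte markers on the array, 9 stood above the floor in the adenine adipocytes and 2 in the adenine fibroblasts, with mean levels of 10.30 and 5.10. Leptin (Lep) was the exception, at 4.25 in adipocytes and 4.34 in fibroblasts. All 10 fibroblast markers stood above the floor in both states, with mean levels of 11.69 in fibroblasts and 9.42 in adipocytes. The adipocyte culture thus kept fibroblast transcripts, and in RNA from whole cultures a lower share of such cells and a lower level per cell cannot be told apart. Array medians over all probe sets lay between 5.41 and 5.49.

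In the adenine pair 673 genes (6.75%) were at least 2-fold higher in adipocytes and 844 (8.47%) at least 2-fold lower. These shares are the background for each 2-fold count of a list given further on. The largest differences upward were those of lipid storage genes, adipokines and an annexin, and the largest downward those of interferon-stimulated genes, chemokines and matrix genes. A 4-fold difference was reached by 140 higher and 240 lower genes. A 16-fold difference was reached by 25 higher and 15 lower genes. The median over all genes was 0.03, and 53.2% of all genes were above 0.

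**Figure D1:**
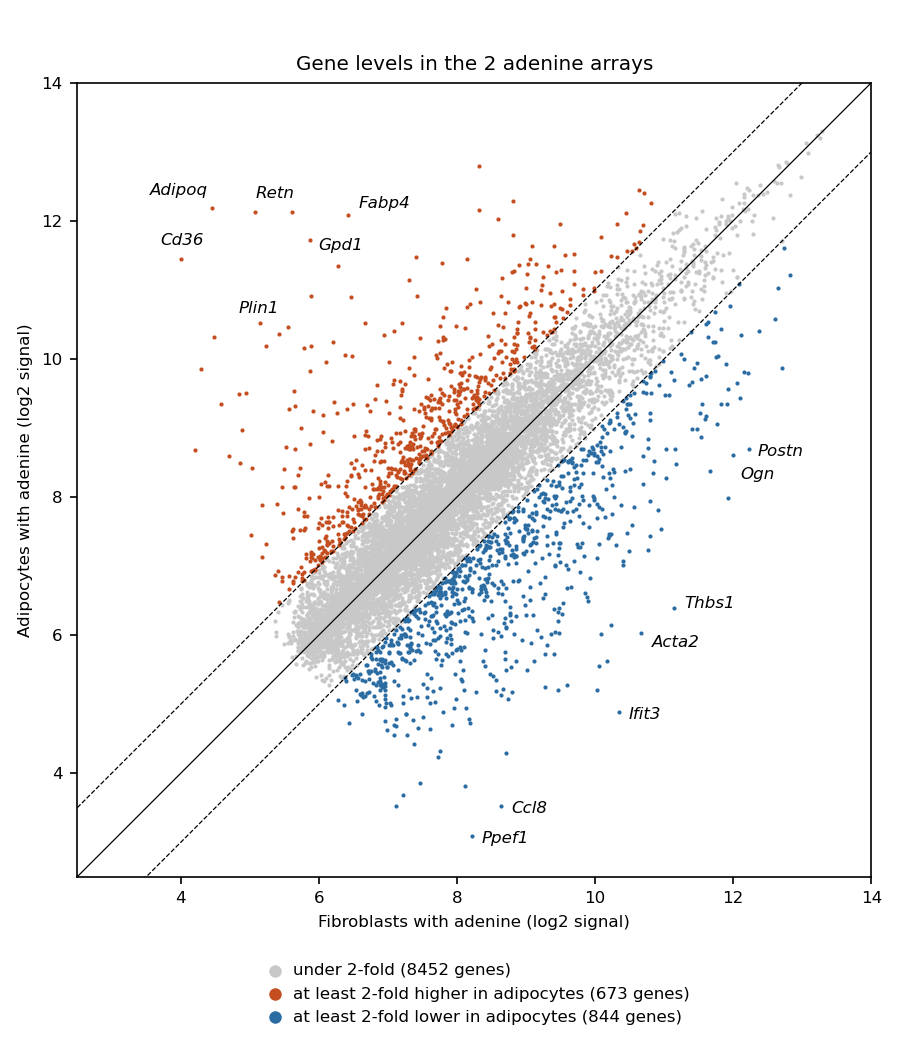
Log2 signal of 9969 genes in adenine fibroblasts (horizontal axis) and adenine adipocytes (vertical axis), with equality as a solid line and 2-fold differences as dashed lines. Fat cell genes such as Adipoq (4.45 and 12.18) lie at the upper left, and Ifit3 (10.34 and 4.88) and Thbs1 (11.14 and 6.39) lie at the lower right.

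The state difference was tested with limma in the 4 arrays that received no adenine, so that genes of the adenine pair could be looked up in arrays that did not enter it. There 252 genes (2.53%) rose and 259 (2.6%) fell in adipocytes, at a limma adjusted p below 0.05. Of the 673 genes at least 2-fold higher with adenine, 217 (32.2%) rose in those arrays and 0 fell. Of the 844 lower genes, 232 (27.5%) fell and 2 rose. A second limma model over all 6 arrays, which includes the adenine pair, called 520 genes higher (5.22%) and 535 lower (5.37%). The shares of all genes called in the 2 models are the background for the list counts further on. Without the control pair this second model called 0 genes in either direction, with 2095 at an unadjusted p under 0.05, and every count over all 6 arrays given further on carries that limit. In both models the error is how far the pairs differ from each other, not the spread of cultures.

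Adipoq encodes adiponectin, the most abundant adipokine. Its log2 signal was 4.42, 4.45 and 4.05 in control, adenine and AICAR fibroblasts and 10.64, 12.18 and 10.79 in the adipocytes of the same order. The states did not overlap, and the adenine adipocytes were the highest, with an adenine pair difference of 7.73 (213-fold). How many of all genes keep the states apart in this way was not counted, here or for the genes below. These separations therefore only describe the values and set no gene apart from the rest. In the 4 arrays without adenine Adipoq rose by 6.48 (SE 0.24, limma adjusted p = 9.26e-05). Retn, the gene of the hormone resistin, was at 5.30, 5.08 and 5.31 in fibroblasts and at 10.50, 12.13 and 9.38 in adipocytes. Again no fibroblast array reached the lowest adipocyte array, and the adenine pair differed by 7.05 (133-fold) beside 5.21 and 4.06 in the control and AICAR pairs.

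Genes of lipid uptake and storage made up most of the others at the top. The fatty acid transporter Cd36 stood at 3.98, 4.0 and 4.47 in fibroblasts and at 10.91, 11.45 and 10.97 in adipocytes, a difference of 7.45 (175-fold) with adenine. Cidec, which makes lipid droplets fuse, differed by 6.52, Fabp4, which carries fatty acids in the cytosol, by 5.67, and Plin1, which coats droplets, by 5.38. Cd36, Cidec, Plin1 and Fabp4 were near the floor or below it in adenine fibroblasts, between 4.0 and 6.42, and near the top of the scale in adipocytes, between 10.52 and 12.13. Gpd1, which makes glycerol phosphate for triglycerides, differed by 5.84, the lipogenic regulator Thrsp by 5.83 and Dgat2, which adds the last acyl chain of triglycerides, by 5.07. Car3, a carbonic anhydrase abundant in fat, stood at 4.77, 4.58 and 4.59 in fibroblasts and at 10.17, 9.34 and 8.05 in adipocytes. It was the only one of the 15 highest genes whose adenine pair difference (4.76) was not the largest of the 3 pairs, since the control pair differed by 5.4. The 15 genes were chosen by the adenine pair, which favours that pair in such a count.

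The rest of the 15 highest had other roles. The melanocortin receptor Mc5r differed by 5.56, haptoglobin (Hp), which binds free haemoglobin, by 5.03, the ribonuclease gene Ang5 of the angiogenin family by 4.95, and the adipocyte galectin Lgals12 by 4.94. The phospholipid-binding annexin Anxa8 stood at 6.0, 5.55 and 6.68 in fibroblasts and at 7.61, 10.46 and 8.40 in adipocytes, a difference of 4.91 (30.1-fold) with adenine beside 1.60 and 1.71. Every adipocyte array was above every fibroblast array for Anxa8, and the adenine adipocytes stood apart from the other two. All 15 of the highest genes rose in the 4 arrays without adenine, where Anxa8 rose by 1.66 (SE 0.22, limma adjusted p = 0.00881) and Hp by 2.68 (SE 0.49, limma adjusted p = 0.0276). In 11 of the 15 the fibroblast level was below the floor, so the size of these folds depends on the background correction.

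**Figure D2:**
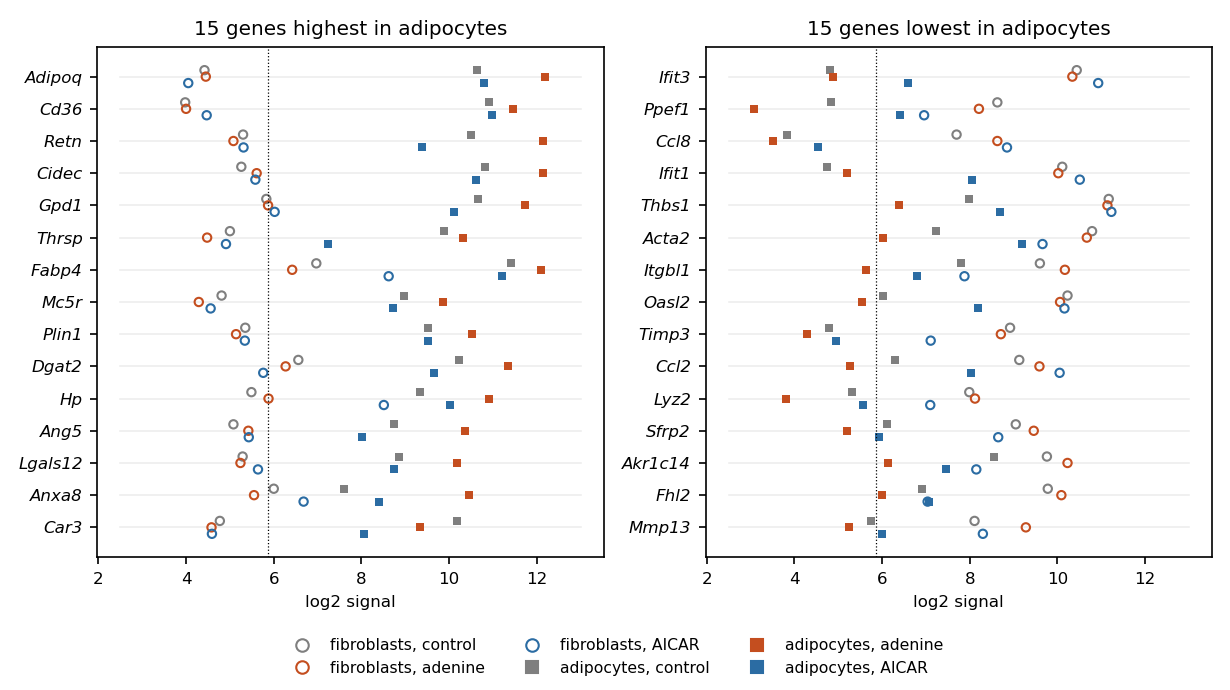
Log2 signal (horizontal axis) in each of the 6 arrays for the 15 genes highest and the 15 lowest in the adenine pair. Open circles are fibroblasts, filled squares are adipocytes, colours are the media and the dotted line is the floor of 5.87. For Adipoq the filled squares lie between 10.64 and 12.18, and for Fhl2 the AICAR circle (7.04) lies beside the AICAR square (7.06).

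Among adipogenic transcription factors 14 of 18 genes were above 0 in the adenine pair and 8 reached 2-fold. The list's median was 0.96 (0.66 when its dim genes were counted too), beside 0.91 in the control and 0.39 in the AICAR pair. Cebpa stood at 5.84, 5.74 and 5.66 in fibroblasts and at 7.75, 9.0 and 7.61 in adipocytes, and differed by 3.26 with adenine. Pparg stood at 8.09, 8.19 and 9.04 in fibroblasts and at 9.81, 10.80 and 9.95 in adipocytes, and differed by 2.61. For both factors the adenine adipocytes were the highest array and the states did not overlap. The liver X receptor gene Nr1h3 differed by 2.29, Srebf1, which drives lipogenic genes, by 2.03, and the coactivator Ppargc1b by 2.0, while Ebf1 (-0.68), Klf4 (-0.60) and the coactivator Ppargc1a (-0.51) were below 0. The early factors Cebpb and Cebpd were higher by 1.00 and 0.95. In the 4 arrays without adenine 5 of the 18 rose, Cebpa by 1.93 (SE 0.21, limma adjusted p = 0.00477) and Pparg by 1.31 (SE 0.26, limma adjusted p = 0.0374), and 6 rose over all 6 arrays. Of all genes 2.53% and 5.22% rose in these models.

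Genes listed as regulators that hold adipogenesis back were mostly lower, with 12 of 14 below 0. Their median was -0.35 (-1.14 with the floor raised to the 75th percentile of means). The preadipocyte factor Dlk1 stood at 11.50, 11.40 and 9.05 in fibroblasts and at 10.32, 8.99 and 10.11 in adipocytes, so that its adenine pair difference was -2.41 while the AICAR fibroblasts were as low as the adenine adipocytes. Snai2, a repressor of epithelial genes, differed by -1.81, Sox9 by -1.64 and Twist2 by -1.38, while Foxo1 was higher by 0.94 and Foxc2 by 0.59. Of the 14, only Snai2 fell in either model, by 1.18 in the 4 arrays without adenine (limma adjusted p = 0.0441).

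Adipokine and other secreted fat cell genes had a median of 1.74 over 13 genes (1.26 with dim genes). Angiotensinogen (Agt) differed by 2.99 and the serpin Serpina3n by 3.86. The adipokine genes Rarres2 (chemerin) and Nampt differed by 1.74 and 1.34. Lipoprotein lipase (Lpl), which frees fatty acids from lipoproteins, was at 12.04 in adenine fibroblasts and at 12.55 in adenine adipocytes, so it was already bright in fibroblasts. The lowest in this list were Metrnl (-0.92) and the matricellular gene Sparcl1 (-0.77). Of the 13, 8 rose in the arrays without adenine and 10 over all 6, beside 2.53% and 5.22% of all genes.

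Lipid droplet and lipolysis genes had a median of 2.57 with adenine (2.09 with dim genes), beside 1.92 and 1.38 in the control and AICAR pairs. Of 13 genes 10 were at least 2-fold higher. The triglyceride lipase Pnpla2 differed by 3.83, hormone-sensitive lipase (Lipe) by 4.44 and the droplet protein Plin4 by 2.31. Plin2, a droplet protein of many cell types, was at 10.05 and 10.41, and Hilpda, an inhibitor of lipolysis, at 6.43 and 6.30. Triglyceride assembly had a median of 3.40, with 10 of 11 genes above 0, but a median of 0.47 when its dim genes were counted too. The acyltransferases Gpat3, Agpat2 and Dgat1 differed by 4.30, 3.43 and 3.40 and the phosphatidate phosphatase Lpin1 by 3.56, while Lpin2 (-0.09), Agpat1 (0.26) and Agpat3 (0.39) were close to 0. Members of 1 enzyme family thus lay far apart. In the arrays without adenine 8 of 13 droplet genes and 6 of 11 assembly genes rose, beside 2.53% of all genes.

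The lipogenic path was less uniform. Fatty acid synthesis and desaturation had a median of 0.83, with 6 of 16 genes at least 2-fold higher. Fatty acid synthase (Fasn) stood at 8.40, 8.80 and 8.53 in fibroblasts and at 10.40, 11.26 and 10.00 in adipocytes, and the desaturase Scd1 at 9.23, 9.49 and 10.43 and at 11.22, 11.95 and 10.33. Fasn did not overlap between the states, whereas for Scd1 the AICAR fibroblasts reached the AICAR adipocytes and the AICAR pair differed by -0.10 beside 2.46 with adenine. The elongase Elovl6 (-1.34) and the desaturases Fads2 (-0.97) and Fads1 (-0.65) were lower in adenine adipocytes. Acly (0.24), which splits citrate, and the acetyl-CoA carboxylase Acaca (0.76) were below a 2-fold difference. Fatty acid uptake and binding had a median of 0.34, with Cd36, Fabp4 and Fabp5 (3.84) far above the other 8 genes, of which the lipoprotein receptor Lrp1 (-1.03) and Acsl5 (-0.54) were lowest.

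The median of cholesterol synthesis genes was 0.29 in the adenine pair, 0.10 in the control pair and -0.76 in the AICAR pair, and 0.61 in the adenine pair with the higher floor. Cyp51, a sterol demethylase, differed by 1.94, the feedback regulator Insig1 by 1.40 and phosphomevalonate kinase (Pmvk) by 1.25. The lowest were Sc5d (-1.15), Ebp (-0.69) and Tm7sf2 (-0.43). Of the 20 genes 0 rose and only Sc5d fell, by 1.17 in the 4 arrays without adenine (limma adjusted p = 0.0346).

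Mitochondrial genes were higher together. All 33 genes of the respiratory chain, ATP synthase and citrate cycle were above 0 in the adenine pair, with a median of 1.15, and 19 were at least 2-fold higher. Medians were 0.40 in the control and 0.83 in the AICAR pair, where 29 and 33 were above 0. Pyruvate carboxylase (Pcx), which makes oxaloacetate for citrate export, differed by 3.61, the citrate cycle enzyme Idh3a by 2.35 and cytochrome c1 (Cyc1) by 1.82, while Ndufa1 (0.10), Cox6a1 (0.51) and Cox5b (0.65) were lowest. In the arrays without adenine 3 of the 33 rose, beside 2.53% of all genes, and over all 6 arrays 11 did, beside 5.22%.

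Of 19 genes of fatty acid oxidation 18 were above 0 and the median was 1.24. Carnitine acetyltransferase (Crat, 2.46), Echs1 (1.90) and Cpt2 (1.90) were highest. The exception was Cpt1a, the gate of fatty acid entry into mitochondria, at 8.40 in fibroblasts and 7.24 in adipocytes, a difference of -1.16 beside -0.57 and 0.91 in the other pairs. Breakdown of branched-chain amino acids, which feeds lipogenesis in fat cells, had a median of 1.33 with all 19 genes above 0. It was led by Aldh6a1 (2.73), Hibch (2.62) and the transaminase Bcat2 (2.54), and Acadsb (0.54), Mmab (0.69) and Acad8 (0.81) were lowest. Peroxisomal genes had a median of 1.11, led by Pex11a (2.88), which divides peroxisomes, the lipid carrier Scp2 (2.48) and Pxmp4 (2.03), and Abcd2 was lowest, at 6.48 on both arrays. Without adenine, 9 of the 19 oxidation, 8 of the 19 amino acid and 6 of the 19 peroxisomal genes rose, and over all 6 arrays 15, 15 and 10 did. The shares of all genes were 2.53% without adenine and 5.22% over all 6 arrays.

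Insulin signalling and glucose uptake had a median of 0.57. The phosphodiesterase Pde3b, through which insulin restrains lipolysis, differed by 3.16, the Rab regulator Tbc1d4 by 2.04 and caveolin Cav1 by 1.45, while the receptor inhibitor Grb14 (-2.22), the basal glucose transporter Slc2a1 (-0.83) and Irs1 (-0.75) were lower. The insulin-responsive glucose transporter Slc2a4 (GLUT4) did not pass the filter. Its signal was 4.99, 4.88 and 5.38 in fibroblasts and 6.04, 7.96 and 5.55 in adipocytes, so the adenine adipocytes were 3.08 above their fibroblasts and alone stood well above the floor. Of 14 brown and beige markers on the array only Ppargc1a and Tbx1 passed the filter, with a median of -0.23 (-0.05 over all 14). The uncoupling protein Ucp1 was at 4.39 and Cidea at 3.74 in adenine adipocytes, whereas the elongase Elovl3, also dim in fibroblasts (3.87), was at 6.91 beside 4.84 and 4.55 in control and AICAR adipocytes.

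Most matrix genes were lower in adipocytes in the adenine pair. In the control pair 10 of 20 collagens and 13 of 15 collagen processing genes were below 0. So were 20 of 27 proteoglycans and matricellular proteins and 15 of 20 metalloproteinases and inhibitors. In the AICAR pair the counts below 0 were 10, 6, 18 and 12 in the same order. Periostin (Postn), a matricellular protein, stood at 11.83, 12.23 and 12.22 in fibroblasts and at 10.99, 8.69 and 10.48 in adipocytes. Osteoglycin (Ogn), a small leucine-rich proteoglycan, stood at 11.82, 12 and 10.81 and at 11.10, 8.61 and 10.67. The adenine adipocytes were the lowest array for both genes. Control and AICAR adipocytes stayed bright, and for Ogn the control adipocytes were above the AICAR fibroblasts. The adenine pair differences were -3.53 for Postn (11.6-fold lower) and -3.38 for Ogn (10.4-fold lower), beside -0.84 and -0.72 in the control pair. Postn fell by 1.29 in the arrays without adenine (SE 0.27, limma adjusted p = 0.0453), and Ogn had a coefficient of -0.43 (SE 0.24, limma adjusted p = 0.402). Over the 10 fibroblast markers the median was -2.19 with adenine, -0.61 in the control and -0.13 in the AICAR pair, and 0 of the 10 fell over all 6 arrays.

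Of 27 proteoglycans and matricellular proteins, 23 were below 0 and 19 at least 2-fold lower. Their median was -1.62, beside -0.61 and -0.21 in the control and AICAR pairs. Thrombospondin Thbs1, an activator of TGF-beta, stood at 11.17, 11.14 and 11.23 in fibroblasts and at 7.99, 6.39 and 8.69 in adipocytes. Its states lay far apart in all 3 pairs, and it fell by 2.86 in the arrays without adenine (SE 0.25, limma adjusted p = 0.00211). The microfibril gene Mfap5 differed by -3.62 (0.18 in the AICAR pair), tenascin C (Tnc) by -2.92 and decorin (Dcn) by -2.84. Versican (Vcan, 0.70) and the laminins Lamc1 (0.24) and Lamb1 (0.20) were the highest of the list. In the list 5 fell and 2 rose without adenine, beside 2.6% and 2.53% of all genes.

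Collagens split by type. Of 20 genes 17 were below 0 with a median of -0.41, beside 0.03 and 0.00 in the control and AICAR pairs. That median was -0.22 with dim genes and -0.81 with the higher floor. The fibrillar genes Col1a1, Col1a2 and Col3a1 differed by -2.39, -2.03 and -1.99. Col1a1 stood at 11.90, 12.05 and 11.18 in fibroblasts and at 11.40, 9.65 and 11.00 in adipocytes, where only the adenine array lay apart. Col8a1 (-3.11) and Col12a1 (-2.54) were lowest. The basement membrane genes Col4a1 (0.19) and Col4a2 (0.17) were close to 0, and Col6a3 was higher by 1.01. In the arrays without adenine Col8a1 fell and Col6a3 rose, and no other collagen passed.

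Enzymes that process collagen had a median of -1.06, with 14 of 15 below 0, beside -0.34 and 0.29 in the control and AICAR pairs. The prolyl hydroxylase P4ha3 (-2.69), the procollagen enhancer Pcolce (-2.56) and the crosslinking oxidase Loxl3 (-2.10) were lowest, and Plod2 (0.02), P3h1 (-0.66) and P3h3 (-0.80) highest. Metalloproteinases and their inhibitors had a median of -1.59. The inhibitor Timp3 stood at 8.92, 8.71 and 7.11 in fibroblasts and at 4.80, 4.29 and 4.95 in adipocytes, and the collagenase Mmp13 at 8.11, 9.28 and 8.30 and at 5.75, 5.25 and 6.01. Neither overlapped between states. Timp3 fell by 3.14 (SE 0.43, limma adjusted p = 0.0106) and Mmp13 fell by 2.32 (SE 0.21, limma adjusted p = 0.00278) in the arrays without adenine. The aggrecanase Adamts5 differed by -3.00, while Adam12 (1.67) and Adamts12 (1.30) were higher.

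Contractile and SRF or YAP target genes had a median of -1.17 with 11 of 19 at least 2-fold lower, beside -0.35 and -0.44. Smooth muscle actin (Acta2) stood at 10.79, 10.67 and 9.66 in fibroblasts and at 7.24, 6.03 and 9.19 in adipocytes, so that the AICAR pair differed by only -0.47 and the adenine pair by -4.64. Calponin Cnn2 (-2.85) and tropomyosin Tpm1 (-2.41) followed, and Tpm2 (0.23), vinculin (Vcl, 0.11) and Srf (-0.04) were highest. The LIM protein Fhl2 differed by -4.08 with adenine and by 0.01 in the AICAR pair. Acta2 and Fhl2 passed neither model, with limma adjusted p = 0.131 and 0.243 in the arrays without adenine.

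Stromal progenitor and preadipocyte markers had a median of -2.36 in the adenine pair, -0.98 in the control and 0.11 in the AICAR pair, and 14 of 15 were at least 2-fold lower with adenine. The integrin-like secreted protein Itgbl1 stood at 9.60, 10.17 and 7.88 in fibroblasts and at 7.80, 5.63 and 6.80 in adipocytes, a difference of -4.54. Islr differed by -3.34 and the calcium-binding protein S100a4 by -3.32, while gelsolin (Gsn) stayed at -0.18, Itgb1 at -1.04 and Clec3b at -1.14. The PDGF receptors Pdgfra and Pdgfrb differed by -1.54 and -2.49. Only Itgbl1 and Pdgfrb fell in the arrays without adenine. Several members of this list had been named for their low level in adenine adipocytes in an earlier look at these arrays, so its direction is not independent evidence.

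Imprinted growth genes had a median of -0.89 (-0.50 with dim genes), beside 0.02 and 1.06 in the control and AICAR pairs. The amino acid transporter Slc38a4 (-3.01), Dlk1 and Mest (-1.66) were lowest and Peg10 (1.94) highest. Of Wnt pathway genes the median was -0.12, and -0.91 with the higher floor. The secreted Wnt modulator Sfrp2 stood at 9.05, 9.46 and 8.65 in fibroblasts and at 6.11, 5.21 and 5.92 in adipocytes, a clear separation in every medium. It fell by 2.84 in the arrays without adenine (SE 0.22, limma adjusted p = 0.00149). The Wnt targets Ccn5 (-2.39) and Ccn4 (-2.03) were lower too, while the transcription factor Lef1 was higher by 2.18. TGF-beta and BMP genes had a median of -0.46 (-0.26 with dim genes, -0.24 with the higher floor), with follistatin-like Fstl1 (-2.35), gremlin Grem1 (-2.14) and the receptor Acvr2a (-1.85) lowest and Id1 (1.75) highest. Of these 3 lists together Sfrp2, Ccn5, Ccn4, Grem1 and Inhba fell, and Peg3, Peg10, Fzd4, Lef1 and Id1 rose, in the arrays without adenine.

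Interferon-stimulated genes were the lowest list in the adenine pair, with 34 of 35 below 0, 31 at least 2-fold lower and a median of -2.64. They were nearly as low in the control pair (-2.54) and less so in the AICAR pair (-1.41). Ifit3, whose protein takes part in binding viral RNA, stood at 10.44, 10.34 and 10.93 in fibroblasts and at 4.82, 4.88 and 6.60 in adipocytes. Ifit1, which recognises foreign RNA caps, stood at 10.11, 10.02 and 10.51 and at 4.75, 5.21 and 8.05. Control and adenine adipocytes lay close together for both, and AICAR adipocytes stood above them. The adenine pair differences were -5.47 for Ifit3 (44.2-fold lower) and -4.81 for Ifit1 (28.1-fold lower). For both, as for 11 of the 15 lowest genes, the level in adenine adipocytes was below the floor. The size of these folds therefore depends on the background correction.

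The rest of the list held sensors, effectors and the signalling factors themselves. The oligoadenylate synthetase relative Oasl2 differed by -4.51, Ifit2 by -3.54 and the RNA sensor Dhx58 by -3.21 (-0.06 in the AICAR pair). Irgm1, an immunity-related GTPase whose promoter is shown above, stood at 9.09, 9.16 and 9.57 in fibroblasts and at 5.08, 6.07 and 7.11 in adipocytes. Stat2 and Irf9, which carry the interferon signal to the response element, differed by -2.69 and -2.20, and Irf7 by -1.77. Oasl1 (0.22), Irf1 (-0.44) and Ifi35 (-0.78) were the highest. In the arrays without adenine 27 of the 35 fell, Ifit3 by 4.98 (SE 0.32, limma adjusted p = 0.000806) and Irgm1 fell by 3.24 (SE 0.36, limma adjusted p = 0.00481), and 28 fell over all 6. Of all genes 2.6% and 5.37% fell in these models.

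Antigen processing genes had a median of -1.0 beside -1.07 and -0.62, and of -0.57 with dim genes. The class I gene H2-Q4 (-2.43), the invariant chain Cd74 (-2.38) and the immunoproteasome subunit Psmb8 (-1.50) were lowest, and Nlrc5 (0.08), Tap2 (-0.51) and Erap1 (-0.57) highest, so that 10 of 11 were below 0. Cd74 stood at 8.90, 6.99 and 4.46 in fibroblasts and at 4.93, 4.62 and 5.91 in adipocytes. Its AICAR pair went the other way (1.45), and it passed neither model. Chemokine and inflammatory genes had a median of -0.89 but reached far in both directions, and the median was -0.60 with dim genes and -2.04 with the higher floor. The monocyte chemokine Ccl2 stood at 9.13, 9.59 and 10.05 in fibroblasts and at 6.29, 5.27 and 8.03 in adipocytes, and Ccl8 at 7.70, 8.63 and 8.85 and at 3.83, 3.52 and 4.53. The B cell chemokine Cxcl13 went the other way, from 5.04, 4.88 and 4.30 to 9.71, 8.97 and 8.79. None of these 3 overlapped between states. Ccl8 fell by 4.09 (SE 0.23, limma adjusted p = 0.000473) and Cxcl13 rose by 4.58 (SE 0.22, limma adjusted p = 0.000299) in the arrays without adenine. The interleukin 1 antagonist Il1rn was higher by 2.88, and Nfkbia by 1.13.

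Of 14 acute-phase proteins on the array 7 passed the filter, 6 of them at least 2-fold higher. Their median was 3.94, beside 2.86 and 2.30, but 1.19 when the dim members were counted, when lipid droplet genes (2.09) stood higher. Lipocalin Lcn2 stood at 8.73, 8.32 and 9.60 in fibroblasts and at 12.17, 12.79 and 12.42 in adipocytes, Orm1 differed by 4.38 and Orm2 by 3.94. Ceruloplasmin (Cp), the copper carrier, was the exception at -0.94. All 6 of the higher genes rose in the arrays without adenine, beside 2.53% of all genes.

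Lysosome and autophagy genes were lower across the list, with 25 of 26 below 0, 12 at least 2-fold, and a median of -0.93 beside -0.69 and -0.35. The protease gene Ctsk (-3.24), the hexosaminidase Hexa (-2.30) and the glucosidase Gaa (-1.92) were lowest. The master regulator Tfeb was the exception at 0.77, and Npc2 (-0.19) and Tfe3 (-0.20) were near 0. In the arrays without adenine 4 fell, and 8 over all 6, beside 2.6% and 5.37% of all genes.

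Cell cycle genes were slightly higher in the adenine adipocytes, with 36 of 43 above 0 and a median of 0.47, beside 0.31 in the control and 1.16 in the AICAR pair. The topoisomerase Top2a (1.68), the thymidine kinase Tk1 (1.43) and Rrm2 (1.20) were highest. Cyclin D1 (Ccnd1), which links growth signals to the cycle, stood at 9.97, 9.78 and 8.66 in fibroblasts and at 8.85, 7.27 and 8.58 in adipocytes and differed by -2.50, and Cdk4 (-0.69) and Kif23 (-0.58) followed. Inhibitors and p53 targets had a median of -0.08 (0.04 with dim genes, -0.44 with the higher floor), from Gadd45b (-1.56), Cdkn2b (-1.49) and Gadd45a (-1.31) to Cdkn2c (1.46), Rb1 (1.27) and Trp53inp1 (0.85).

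Ribosome biogenesis genes were all above 0, 29 of 29, with a median of 0.63 beside 0.45 and 0.24. Myc, which drives them, stood at 8.06, 7.58 and 9.80 in fibroblasts and at 9.43, 9.71 and 9.83 in adipocytes, so the AICAR fibroblasts matched the adipocytes and the adenine pair differed by 2.13. Dkc1 (1.34) and Rrs1 (1.09) followed, and Gnl3 (0.14), Npm1 (0.16) and Utp20 (0.16) were lowest. In the arrays without adenine 0 of the 29 passed in either direction, and 3 rose over all 6, beside 5.22% of all genes. Ribosomal protein genes stayed within -0.18 (Rps20) and 0.28 (Rplp0, Rpl4), with a median of 0.13, and a set of 14 commonly used reference genes had the same median, with Gusb at -1.05 and Tfrc at 1.82. Actb differed by -0.43 and Ppia by 0.00.

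The enzymes that act on adenine and AICAR differed little between the adenine arrays. Aprt stood at 8.24, 7.98 and 8.17 in fibroblasts and at 7.74, 7.6 and 7.81 in adipocytes, with the adipocytes lower in each medium and an adenine pair difference of -0.38. Adk stood at 8.42, 8.54 and 7.52 and at 8.52, 8.28 and 8.35, with a difference of -0.26 and overlapping states. Hprt, which salvages hypoxanthine and guanine, stood at 8.74, 8.41 and 8.71 and at 9.23, 9.70 and 9.34 and differed by 1.29 (2.44-fold). Aprt, Adk and Hprt did not pass in the arrays without adenine (limma adjusted p = 0.352, 0.387 and 0.219).

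Purine salvage and breakdown had a median of 0.07 over 18 genes. Guanine deaminase (Gda, 2.51) was highest and the adenylate kinase Ak1 (-1.18) and the phosphorylase Pnp (-0.93) lowest. With the higher floor the median was -0.11. Of 13 genes that build purines de novo 11 were above 0, and their median was 0.53, from Prps1 (1.57), Impdh1 (1.18) and Gart (0.74) to Paics (0.15), Prpsap2 (-0.04) and Prps2 (-1.48), so the synthetases that make phosphoribosyl pyrophosphate went opposite ways. No gene of either list passed in either model. The array holds 29 purinergic receptor, ectonucleotidase and nucleoside transporter genes, of which 9 were bright enough to be kept, and their median was -0.27 (-0.12 with dim genes). The nucleoside transporter Slc29a1 (-1.59) and the ATP-gated channels P2rx4 (-1.33) and P2rx3 (-0.77) were lowest. The diphosphatases Entpd5 (1.91) and Entpd6 (1.49) and the nucleobase transporter Slc43a3 (1.09) were highest, and of these only Entpd5 rose in the arrays without adenine.

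AMPK subunits and upstream kinases had a median of 0.12. The catalytic subunit Prkaa1 differed by 0.44 and the regulatory subunit Prkag2 by 1.20, and the related kinase Sik2 (2.71) and the scaffold Cab39 (1.90) were highest. The folliculin complex genes Fnip2 (-1.02), Flcn (-0.98) and Fnip1 (-0.86) were lowest. Only Sik2 rose in the arrays without adenine.

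Stress lists had medians close to that of all genes. ATF4 targets and amino acid genes had a median of 0.27 beside -0.13 and 0.84, from Cth (2.03), Slc1a5 (1.79) and Mthfd2 (1.75) to Ddit3 (-0.74), Slc1a4 (-0.97) and Aldh1l2 (-1.58). Endoplasmic reticulum chaperones had a median of 0.00, with Dnajb9 (1.58), Xbp1 (0.84) and Ero1a (0.63) highest and Herpud1 (-0.66), Sec61b (-0.55) and Pdia3 (-0.42) lowest. NRF2 targets had a median of 0.28 and reached both ways. The pentose phosphate enzymes Taldo1 (2.58) and Tkt (1.67) and catalase (Cat, 1.67) were higher, while haem oxygenase Hmox1 (-2.05), Gstm2 (-1.91) and Ephx1 (-1.50) were lower.

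Glucocorticoid- and cAMP-responsive genes, which the induction drugs act on, had a median of 0.59 in the adenine pair (1.18 with the higher floor), 0.87 in the control and -0.06 in the AICAR pair. Glutamine synthetase (Glul) stood at 7.53, 7.40 and 7.35 in fibroblasts and at 10.87, 11.48 and 10.92 in adipocytes, with no overlap, and differed by 4.08. The glucocorticoid target Fkbp5 differed by 2.90, and Sgk1 (-0.79) and the receptor Nr3c1 (-0.45) were among the lowest with Ppargc1a. Clock genes had a median of 0.37 beside -0.16 and -0.69, from Nfil3 (0.95), Cry2 (0.81) and Clock (0.75) to Bhlhe40 (-0.16), Dbp (-0.32) and Bhlhe41 (-2.04). The median of glycolytic and hypoxia genes was 0.58, beside 0.26 and -0.30. The regulator Pfkfb3 (2.14), the oxygen sensor Egln3 (2.0) and hexokinase Hk2 (1.84) were highest, and P4ha1 (-1.0), P4ha2 (-1.06) and Ankrd37 (-1.44) lowest.

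The angiotensin, neuropeptide Y and melanocortin genes had a median of 0.01 with adenine over 7 genes, beside 2.31 and 1.73 in the control and AICAR pairs. With the higher floor the adenine median was 1.24. The angiotensin receptor Agtr2 stood at 6.89, 7.67 and 4.42 in fibroblasts and at 9.20, 6.46 and 7.91 in adipocytes, so it was lower in adipocytes only in the adenine pair (-1.21, beside 2.31 and 3.49). The neuropeptide Y receptor Npy1r stood at 7.98, 8.28 and 7.97 and at 7.57, 5.17 and 7.65, with 1 array, the adenine adipocytes, apart from the other 5. The melanocortin receptor accessory protein Mrap (4.57) was highest beside Mc5r and Agt.

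**Figure D3:**
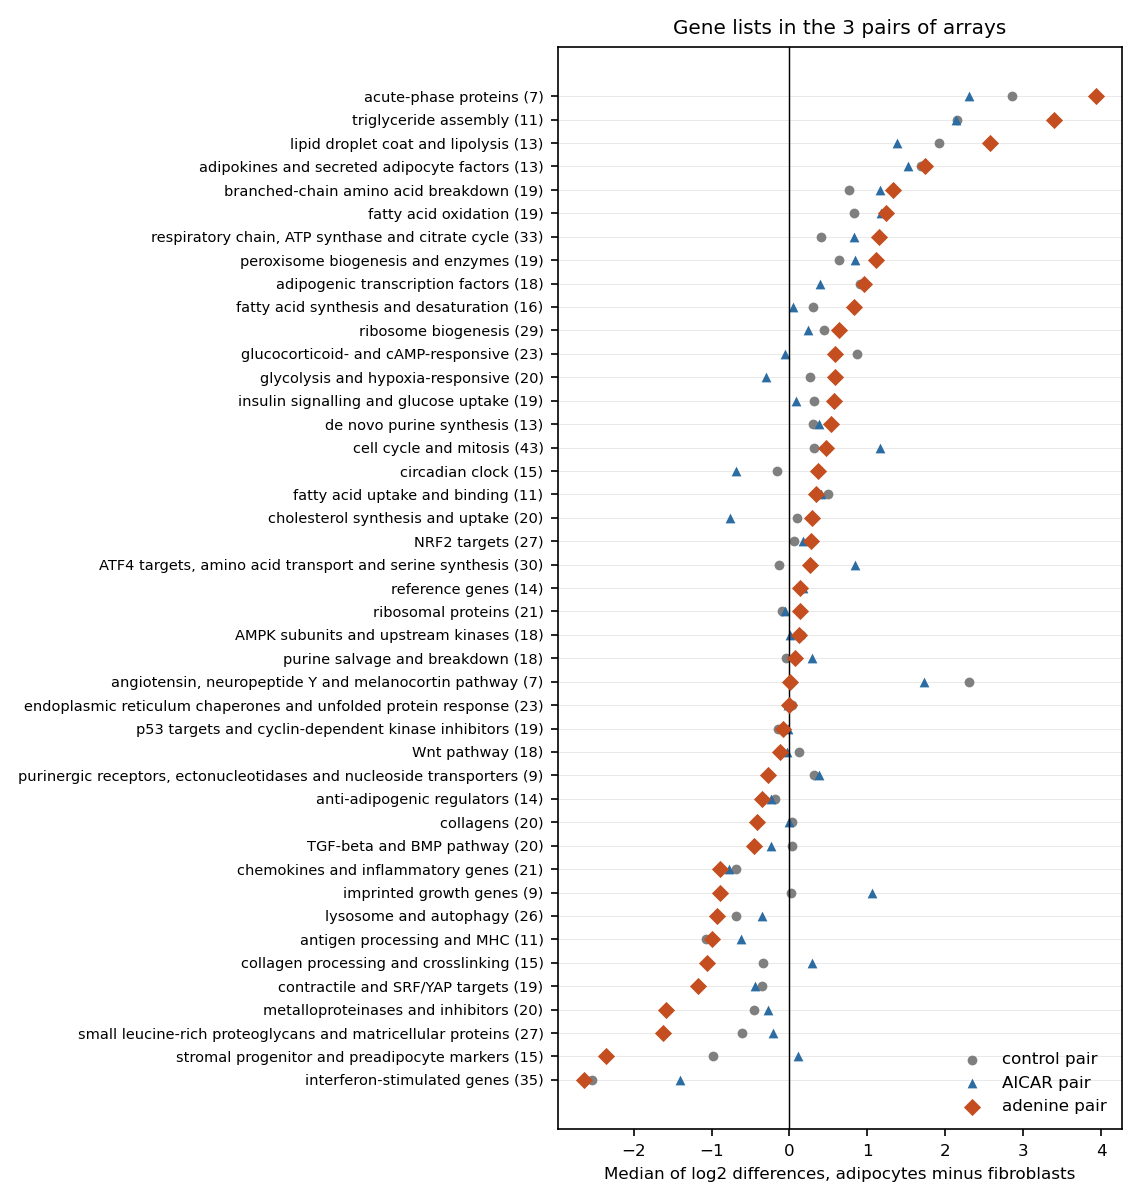
Median log2 difference, adipocytes minus fibroblasts (horizontal axis), of 43 gene lists with at least 5 genes kept, in the control, AICAR and adenine pairs. The number of genes kept is in brackets, and the adenine median runs from -2.64 for interferon-stimulated genes to 3.94 for the 7 acute-phase proteins kept.

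The adenine pair had wider tails than the other pairs. The SD of differences over 9969 genes was 0.85 with adenine, 0.62 in the control pair and 0.68 in the AICAR pair, and 1517, 713 and 1050 genes were at least 2-fold apart. A spread that gives little weight to the tails, the scaled median absolute deviation, was 0.495 with adenine, 0.373 in the control and 0.489 in the AICAR pair, so apart from the tails the adenine and AICAR pairs were of like width. These pairs share no array. Of the 673 higher genes 231 were also at least 2-fold higher in the control pair, which is 34.3% of the adenine and 80.5% of the control genes. In the AICAR pair 283 were, 42.1% of the adenine and 47.9% of the AICAR genes. Of the 844 lower genes 351 were also lower in the control pair (41.6% and 82.4%) and 266 in the AICAR pair (31.5% and 58%). The reverse direction was reached at 2-fold by 0 and 4 of the higher genes, and by 3 and 26 of the lower genes, in the control and AICAR pairs. The 673 genes had a median of 1.39 with adenine, 0.76 in the control and 0.90 in the AICAR pair, and the 844 had medians of -1.55, -0.85 and -0.64. Since the genes were chosen by the adenine pair, its own medians had to be the larger. The list medians were farther from 0 with adenine than in the control pair for 34 of 43 lists, and than in the AICAR pair for 32. The lists share genes and were chosen with earlier results of these data known, so these counts are not independent evidence.

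**Figure D4:**
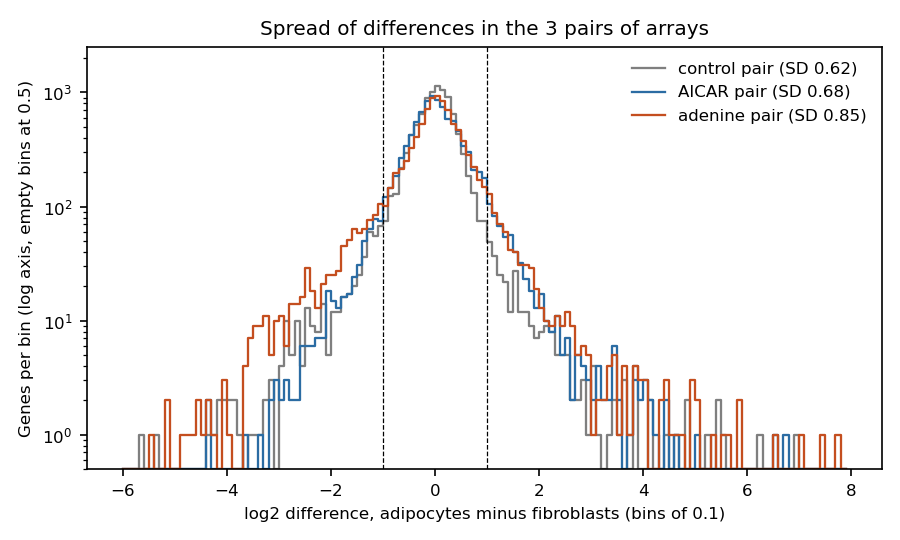
Number of genes (vertical axis, log scale) by log2 difference, adipocytes minus fibroblasts (horizontal axis, bins of 0.1), in the 3 pairs. The adenine pair (SD 0.85) has the wider tails, and its lower tail beyond -2 holds 240 genes against 103 in the control and 69 in the AICAR pair.

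Whether the adenine pair departs from the mean of the other 2 pairs was tested gene by gene with limma. Of 9969 genes 0 (0%) passed, with 573 at an unadjusted p under 0.05, 189 upward and 384 downward, and a smallest limma adjusted p of 0.268. That value was shared by 7 genes: Anxa8 above and Agtr2, Akr1c14, Npy1r, Col12a1, Ogn and Itgbl1 below. The error here is the gap between the control and AICAR pairs, with 1 residual degree of freedom. The largest departures upward were Anxa8 (3.25), the phosphatase Dusp4 (2.47), Retn (2.42), Hp (2.35), Fam83a (2.24), Thrsp (2.23), Pfkfb3 (2.20), the cortisone-activating enzyme Hsd11b1 (2.19), Fabp4 (2.17) and Gpat3 (2.15). The largest downward were Agtr2 (-4.11), Arhgap20 (-3.65), dermatopontin (Dpt, -3.39), apolipoprotein D (Apod, -3.39), S100a4 (-3.33), pleiotrophin (Ptn, -3.17), Akr1c14 (-3.15), Itgbl1 (-3.10), Ogn (-2.95) and Ppef1 (-2.94).

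The arrays behind these estimates differed in kind. For the aldo-keto reductase Akr1c14 the values were 9.76, 10.23 and 8.15 in fibroblasts and 8.55, 6.14 and 7.46 in adipocytes, and the adenine adipocytes were the lowest array. For Apod they were 11.69, 11.93 and 8.75 and 9.18, 7.99 and 10.15, and for Arhgap20 9.36, 9.30 and 5.75 and 8.81, 7.31 and 9.63. In Apod and Arhgap20 the AICAR fibroblasts were low as well, and the AICAR pair lay farther from the control pair than the adenine pair did. Ppef1, a calcium-binding protein phosphatase, stood at 8.63, 8.21 and 6.96 in fibroblasts and at 4.84, 3.09 and 6.41 in adipocytes, again with low AICAR fibroblasts and with the adenine adipocytes lowest.

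**Figure D5:**
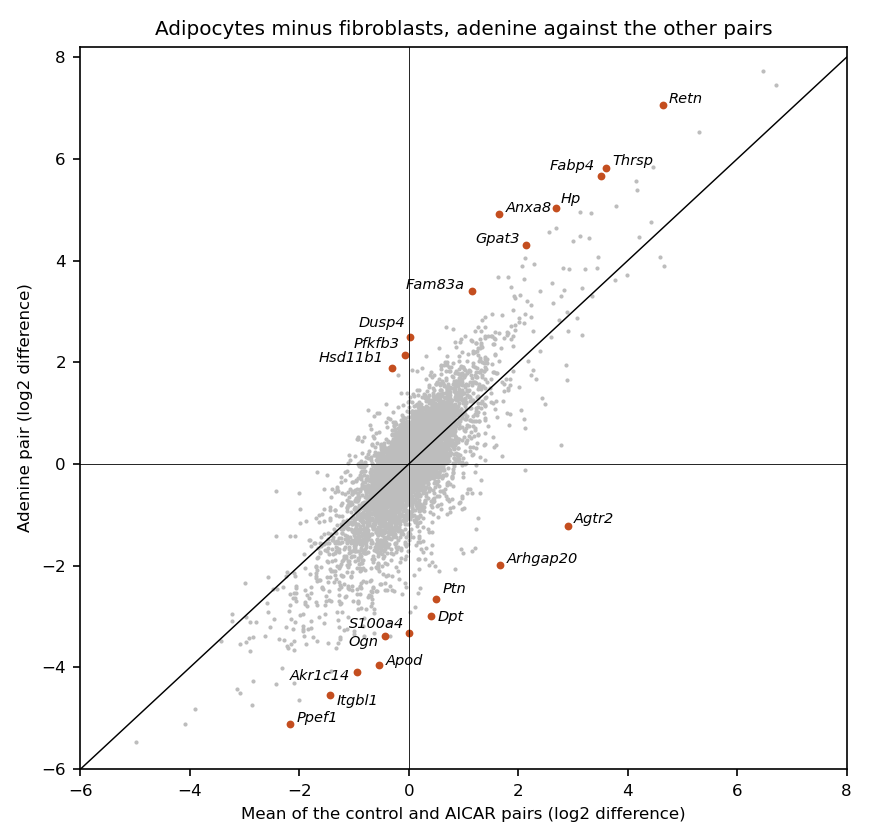
Log2 difference of the adenine pair (vertical axis) against the mean of the control and AICAR pairs (horizontal axis) for 9969 genes, with equality as a diagonal line. Named in colour are the 10 largest departures each way, from Agtr2 (-4.11) to Anxa8 (3.25), none of which passed the test.

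Of the 15 lowest genes of the adenine pair 11 fell in the arrays without adenine, and Ppef1, Acta2, Akr1c14 and Fhl2 did not pass. Lysozyme (Lyz2), abundant in phagocytes, was among the 11 that fell, at 7.99, 8.12 and 7.10 in fibroblasts and 5.32, 3.81 and 5.57 in adipocytes. Markers of leukocytes otherwise gave little signal: 2 of 11, Lyz2 and Cd14 (6.42), were above the floor in adenine fibroblasts and 0 in adenine adipocytes, with mean levels of 5.00 and 4.47. The defining genes Ptprc (3.86 and 4.20), Adgre1 (3.65 and 3.71) and Itgam (4.06 and 3.90) were below it on both arrays. Their part in the interferon and chemokine differences was not tested. Mean levels in adenine fibroblasts and adipocytes were 5.20 and 5.18 for muscle markers (2 and 2 of 12 above the floor), and 5.55 and 5.55 for bone and cartilage markers (2 and 4 of 10). They were 4.85 and 4.69 for endothelial markers (1 and 0 of 10), and 5.04 and 5.11 for epithelial markers (0 and 1 of 10). The alkaline phosphatase Alpl, in the bone list, was at 5.70 and 7.82, and was the only gene of these 5 lists at least 2-fold higher in adenine adipocytes.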

How the data were processed

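Affymetrix arrays were hybridised with biotinylated total RNA of 3T3-L1 cells, 1 for each of 6 cultures, per the labels' protocols. The deposited values are log2 expression for 35556 probe sets, made by the authors with Transcriptome Analysis Console 1.0.0.234 and build mm10, per the submitters' processing notes. Sources used here do not give the background correction, normalization or probe summary. Values were used as deposited. Detection calls were not used, so the background correction bears on differences that start from a dim level. The number of arrays, 1 per condition, limits the precision, and nothing says how many cultures each stands for.

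In the platform annotation 21789 probe sets have 1 symbol, 1621 have several and 12146 have none. Of 19938 symbols, 999 had more than 1 probe set, and the brightest by its 6-array mean stood for the gene. A gene was kept if that mean reached the median over all genes. Array values were subtracted within each pair, and a difference of at least 2-fold was counted.

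limma 3.58.1 in R 4.3.3 fitted state and medium over all 6 arrays, state and medium over the 4 arrays without adenine, and the departure of the adenine pair. P-values were adjusted by Benjamini-Hochberg over all genes kept, at 0.05. The fits were run on simulated data with independent noise, sized by control and adenine fibroblasts. That run does not measure the error rate of the calls given here. The 44 gene lists and 7 marker lists were described by counts and medians only, and a gene may stand in several. Promoters came from a RefSeq table of GRCm38.p6, in which 8067 of the 9969 genes had an entry; where a gene had several, 1 with the motif was enough. The genes named were the 15 largest differences each way, the 10 largest departures each way, mostly the 3 highest and 3 lowest of each list, members that complete a family, and Adipoq, Retn, Postn, Ogn, Aprt, Adk and Hprt. Clone-named and predicted genes were passed over. The comparison, lists and rules were chosen with earlier results of these data known.

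Alternatives were quantile normalization, median centring, the mean of probe sets, other filters, 1.5-fold and 4-fold thresholds, a floor, a trended prior and leaving out each pair.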

Additional observations from a re-analysis of the deposited data

How the results depend on the processing

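The number of arrays limits every value here, and dim genes are limited by the unknown background correction. Arrays carry no replicate number, and both state models pair the states by medium. Normalizing again, averaging probe sets, flooring both arrays or filtering on the adenine arrays kept the adenine pair counts within 1.5 times. With a filter at the 75th percentile 393 genes were higher and 451 lower in the adenine pair. With a 1.5-fold threshold 1537 were higher and 1539 lower, and with a 4-fold threshold 140 and 240. The state model over all arrays called 342 higher and 263 lower with the 75th percentile filter, and 252 and 259 without the adenine pair. Without the control pair it called 0 higher and 0 lower, with 2095 genes at an unadjusted p under 0.05. The model of the 4 arrays without adenine called 157 higher and 161 lower after median centring, 505 and 577 without a filter, and 98 and 51 with the 75th percentile filter. The departure test called 4 higher and 10 lower genes without a filter. The causes were not tested. The median of the p53 list was 0.04 without a filter, and that of purine salvage was -0.11 with the 75th percentile filter. Plod2 was at -0.01 after quantile normalization and Nlrc5 at -0.25 with the mean of probe sets, which also put Irs1 at -0.39 and P2rx3 at -0.35. Over all gene lists, 30 of 246 recomputed medians moved by more than 0.156, the spread of gene differences between control and adenine fibroblasts, and 2 changed sign. Of 80 recomputed departures 18 moved by more than that spread. The 80 included departures taken against the control pair alone.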

Other observations

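Over all 19938 genes with a symbol of their own, dim ones included, the limma test of a departure of the adenine pair from the mean of the other pairs called 14 genes, against 0 of the 9969 brighter genes. Only Adgrf5, Adtrp and Mc2r of the 14 are dim genes, and the others are among the 9969 that gave 0 calls when fitted alone. The wider set changes the prior on the variance, and all 14 calls rest on 1 residual degree of freedom.

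Of the 14 genes, 4 departed upward. Anxa8 is described above. The melanocortin receptor Mc2r, which binds the adrenal hormone ACTH, stood at 3.46, 3.26 and 3.30 in control, adenine and AICAR fibroblasts and at 5.89, 8.15 and 5.98 in adipocytes, a departure of 2.34 (SE 0.36, limma adjusted p = 0.0496). The hydrolase gene Adtrp stood at 4.85, 4.29 and 4.16 and at 6.48, 8.21 and 5.57, and the adhesion receptor Adgrf5 at 3.87, 3.67 and 4.28 and at 4.34, 6.47 and 4.03. In each of these 3 genes the adenine adipocytes were the highest array by a wide margin.

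The other 10 departed downward: Agtr2, Akr1c14, Itgbl1, Npy1r, Ogn, Col12a1, Sulf2, Fat4, Svep1 and Rassf2. The heparan sulfatase Sulf2 stood at 7.68, 8.44 and 6.32 in fibroblasts and at 8.47, 6.77 and 7.43 in adipocytes, so that its pair differences were 0.79, -1.67 and 1.12. The cadherin Fat4 stood at 8.2, 8.69 and 7.52 and at 8.33, 6.50 and 7.58, and the matrix protein Svep1 at 8.81, 9.42 and 8.62 and at 7.62, 6.04 and 8.16. The Ras-association gene Rassf2 stood at 7.67, 8.07 and 6.45 and at 8.76, 7.02 and 7.89. In these 4 genes the adenine fibroblasts were the highest of the fibroblast arrays and the adenine adipocytes the lowest of the adipocyte arrays.

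Mc2r and Mc5r, both receptors of melanocortin peptides, and their accessory protein Mrap were higher in adipocytes in every medium, and each was highest in the adenine adipocytes.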
